A study of Mus musculus with 24 samples.

Results

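The data described here are the daytime comparison of pineal glands with and without the transcription factor Neurod1. It sets 3 pools titled pineal gland NeuroD1 cKO against 3 titled pineal gland control, all collected at ZT6, which is 6 h after lights on in a 12 h light and 12 h dark cycle. These are 6 of the 24 arrays of the series. All genes with a probe set that carries 1 gene symbol were included, and the brightest probe set, averaged across the 24 arrays, stands for its gene, which gave 18193 genes from 45101 probe sets. Of these, 11984 lay above the array median on at least 3 of the 12 pineal arrays and were tested, and 6209 were not. Both groups were C57BL/6J mice, 2 months old and of both sexes, with floxed NeuroD1 alleles. The cKO mice also carried Crx-Cre on 1 allele (Crx-Cre+/-), in which the promoter of the photoreceptor and pinealocyte gene Crx drives the recombinase, and the controls carried no Cre. Each pool held 6 glands, so a p-value measures the spread between pools and not between single mice. No group carried Crx-Cre without floxed alleles, so that an effect of Cre and an effect of the deletion cannot be told apart. The other arrays used here are the pineal pools collected at ZT20, 20 h after lights on and under dim red light, and the retinal pools of ZT6, with the same genotypes and 3 pools of 6 in each group.

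Neurod1 is a factor of the basic helix-loop-helix (bHLH) class that pairs with E proteins such as Tcf3, Tcf4 and Tcf12 and binds E boxes, short sites of the form CANNTG. It is best known from neurogenesis and from the endocrine pancreas, and it is also found in retinal photoreceptors and in pinealocytes, the main cells of the pineal gland. Pinealocytes share with photoreceptors the homeobox factors Otx2 and Crx and much of the phototransduction machinery. They make melatonin from tryptophan at night, when noradrenaline from sympathetic nerves raises cAMP and with it the acetyltransferase Aanat. The gland lies under the skull between the meninges, beside the choroid plexus of the third ventricle, and it also holds blood vessels, astrocytes, macrophages and connective tissue.

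All values are signal intensities of an array on a linear scale. They are set side by side between pools of 1 probe set and never between genes, since probe sets differ in brightness. Where a summed signal of a list is given, it adds the raw signals of all measured members, tested or not. The brightest probe sets weigh most in it, so it is a description. Differences are in log2(signal + 16) units, cKO minus control, ± SE from limma with n = 3 pools in each genotype. A gene is said to pass, rise or fall where its adjusted p lay under 0.05. In a bulk sample, fewer cells of a type and less RNA per cell cannot be told apart, which holds for every gene below. Array medians were 130 to 158.8 units in control pools and 115.5 to 131 in cKO pools (exact permutation test, two-sided, p = 0.2, where 3 against 3 pools cannot go below 0.1), and trimmed means were about level, 669.7 ± 57.4 (SD) against 671.6 ± 24.04 (exact permutation p = 1). Pools of 1 genotype correlated at r = 0.989 to 0.992 across probe sets, and pools of different genotype at 0.981 to 0.99. RNA integrity, taken as log2 of the signal at the 3' end of Actb over that at its 5' end, was 1.19 ± 0.09 in control and 1.16 ± 0.11 in cKO pools. Pool 3 of each genotype stood apart in rod genes, with Gnat1 (rod transducin) at 72.6, 1267 and 3830 in the controls and 114.9, 76.9 and 2234 in cKO. The Y-linked gene Eif2s3y read 3284, 5096 and 5191 in control and 3088, 2304 and 3632 in cKO pools (-0.58 ± 0.15, adjusted p = 0.02, and 0.057 with pool number as a block, 0.12 without control pool 2, 0.26 without control pool 3 and 0.32 without cKO pool 2), 1 of 4 sex-linked genes to pass (0 higher), and how many males each pool held is not stated.

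The targeted gene was nearly lost. Neurod1 read 4647, 5268 and 5008 in control pools 1, 2 and 3 and 83.5, 29.1 and 30.9 in the cKO pools, so that cKO kept 0.962% of the control mean. All 3 cKO pools were low, and pool 1 was the highest of them. The difference was -6.39 ± 0.39, adjusted p = 8.2e-28. A second Neurod1 probe set read 2113.9, 2381.9 and 2423.9 in controls and 18.4, 3 and 8.6 in cKO. All 6 pools match their labels at the target. The floxed segment of the gene is not described in these sources, so whether the probe sets lie in it is unknown.

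Of the 11984 genes tested, 216 passed (1.80%). Of these, 84 were higher in cKO (0.701%) and 132 lower (1.10%), with Neurod1 far below all others. The median difference of all genes was 0.02. Only 15 of the higher genes exceeded 1 on the log2 scale and 46 of the lower ones fell below -1, so most changes were under 2-fold. In 197 of the 216 the 3 control and 3 cKO values did not overlap. Among all genes tested, 7.43% had cKO pools above and 8.13% had cKO pools below all control pools. Where a called gene had further probe sets that could be tested (68 genes, 117 probe sets), 105 of these moved the same way and 48 passed too, while 12 had the opposite sign and 0 of those passed. Calls leaned on a spread shared by all genes, with 103.6 prior against 8 residual degrees of freedom: without the mean-variance trend 37 genes passed, and in a fit of all 24 arrays 12 did. Leaving out control pool 1 left 75 genes (5 higher, 70 lower), control pool 3 left 99 (53 and 46), cKO pool 2 left 135 (42 and 93), and pool 3 of both genotypes 82 (47 and 35). Centring each array on its median, which shifts the median of all genes to 0.25, gave 4169 calls, 4024 higher and 145 lower. Of 89 passing genes described below or drawn from the lists, 16 were tested and kept their call whichever of the 6 pools was left out, 3 (Iglv1, Igll1 and Ibsp) kept it where tested but were too dim to test without at least 1 of the pools, 54 lost it without control pool 1 and 33 without control pool 3.

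**Figure D1:**
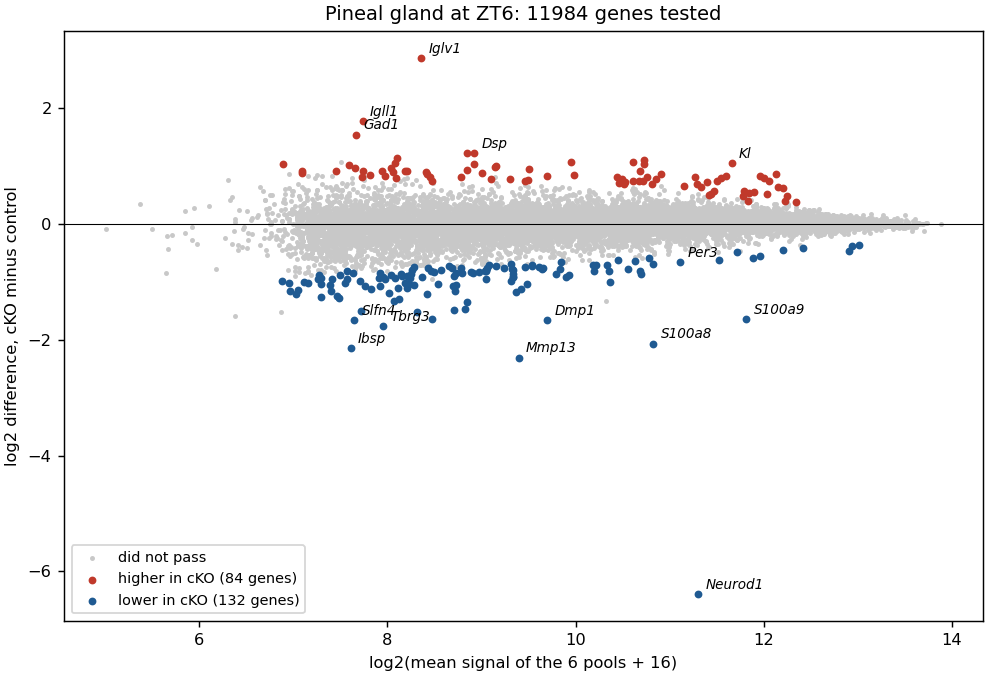
Log2 difference between cKO and control pineal glands at ZT6 against mean signal, 1 point per gene tested. Red points are the 84 genes that passed as higher in cKO and blue points the 132 that passed as lower; Neurod1 lies at -6.39 and Iglv1 at 2.87, and most other called genes lie within 2 units of 0.

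The transcription factors that define the pinealocyte did not pass the test. Crx, the homeobox gene whose promoter drives the Cre, read 7997, 8529 and 8345 in control and 8569, 8891 and 8171 in cKO pools (0.04 ± 0.07, adjusted p = 0.97), so the groups overlapped within a narrow range. Otx2, which acts upstream of Crx, read 6412, 6955 and 7016 and 6972, 7137 and 6964 (0.05 ± 0.09). Lhx4, a LIM homeobox factor, was at 0.06 ± 0.07, Pax6, an eye and pineal homeobox factor, at 0.11 ± 0.17, and the retina and pineal factor Rax at 0.21 ± 0.21. The largest difference among the 7 measured factors was in the nuclear receptor Rorb, at 0.29 ± 0.18 (adjusted p = 0.77). In all, 0 of 7 passed in either direction, with a median of 0.10. Isl1 was too dim to test.

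Relatives and partners of Neurod1 did not pass either. Neurod4, the closest relative with a strong signal, read 11705, 11815 and 11458 in controls and 12538, 11719 and 11559 in cKO (0.03 ± 0.07, adjusted p = 0.97). Neurod2 read 593.2, 867.2 and 1159 against 1120, 1340 and 787.8 (0.32 ± 0.20), a wide and overlapping range, and Neurod6, Neurog1, Neurog2 and Neurog3 were too dim to test. The E proteins that Neurod1 pairs with were at -0.05 ± 0.21 (Tcf3), 0.08 ± 0.11 (Tcf4) and 0.07 ± 0.13 (Tcf12). Id1, Id2, Id3 and Id4, inhibitors that hold E proteins away from DNA, were at 0.08, -0.01, 0.01 and 0.12. The Notch target Hey2 was the one member without overlap, 712.8, 1027 and 1089 against 1174, 1254 and 1386, but did not pass (0.45 ± 0.19, adjusted p = 0.39). Of the 14 tested members of this list, 0 passed either way and the median was 0.05.

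**Figure D2:**
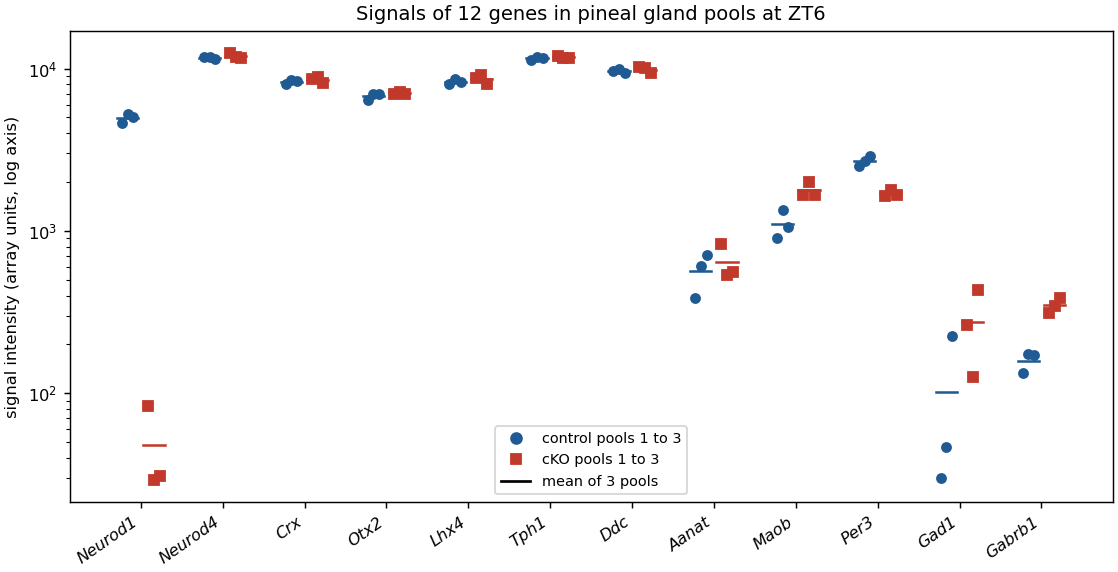
Signal intensity (log axis) of 12 genes in each pineal pool at ZT6; blue circles are control pools, red squares cKO pools and bars the mean of 3 pools. Neurod1 falls from 4647 to 5268 units in controls to 29.1 to 83.5 in cKO, Crx, Otx2, Lhx4, Tph1 and Ddc overlap, Per3 is lower in every cKO pool, and Maob and Gabrb1 are higher in every cKO pool.

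Of the genes that make and handle melatonin, 1 of 11 passed as higher and 0 as lower (median 0.03). Tph1, which hydroxylates tryptophan in the first step, read 11350, 11770 and 11543 and 12033, 11606 and 11545 (0.02 ± 0.06), and Ddc, the decarboxylase that then makes serotonin, was at 0.03 ± 0.07. Aanat, the acetyltransferase that sets the nightly rhythm, was low by day, at 386.8, 607.7 and 707.6 in control and 832.1, 535.6 and 558.4 in cKO pools, and did not pass (0.19 ± 0.19, adjusted p = 0.95). The member that rose was Maob, the monoamine oxidase of serotonin-rich cells and glia, from 904.7, 1354 and 1054 to 1665, 2011 and 1655 with no overlap (0.69 ± 0.18, adjusted p = 0.015). Its adjusted p was 0.2 without control pool 1, 0.09 without control pool 3 and 0.17 without cKO pool 2. Among the enzymes of the cofactor tetrahydrobiopterin, Gch1 was at 0.03 ± 0.10 and Qdpr at 0.02 ± 0.07, and Pts was lower in every cKO pool, 1300, 1427 and 1201 against 1039, 1197 and 858.6, without passing (-0.35 ± 0.19, adjusted p = 0.66).

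The route from noradrenaline to cAMP gave 0 passing members of 14 (median 0.09). Prkaca, a catalytic subunit of protein kinase A, read 4518, 5135 and 5264 in controls and 5663, 5937 and 5586 in cKO, higher in every cKO pool by 0.21 ± 0.10 (adjusted p = 0.5). Its regulatory partners Prkar1a and Prkar2b were at 0.05 ± 0.11 and 0.10 ± 0.09. Crem, a cAMP-responsive regulator, was at -0.18 ± 0.18, the deiodinase Dio2 at -0.46 ± 0.22 and the phosphodiesterase Pde4b at 0.20 ± 0.17. The alpha-adrenergic receptor Adra1b was dim, 49.5, 59.8 and 91.4 against 80.9, 66.6 and 55.3, and overlapped.

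Phototransduction genes, which the gland shares with the retina, likewise held no call (0 of 20 either way, median -0.02). Sag, the arrestin of rods and pinealocytes, read 9952, 10921 and 10294 in control and 10466, 10489 and 10865 in cKO (0.03 ± 0.07), and the transducin subunit Gnb3 was at 0.02 ± 0.07. Gnat2, the cone transducin, was lower in every cKO pool, 6443, 7123 and 6575 against 5660, 6377 and 5833, at -0.17 ± 0.10 without passing (adjusted p = 0.71). The cone opsin Opn1sw went the other way, 657.0, 913.0 and 1152 against 1444, 1399 and 1099, with overlap (0.55 ± 0.23, adjusted p = 0.32). Rod genes were highest in pool 3 of each genotype. Recoverin (Rcvrn) read 2.9, 235.4 and 961.0 in controls and 12.5, 11.4 and 808.4 in cKO, and the rod factor Nrl 119.7, 373.0 and 1081 and 160.5, 181.3 and 471.8. Of the photoreceptor structure and retinoid genes 0 of 13 passed (median -0.02). The retinoid-binding protein Rbp3 was at -0.02 ± 0.06 and the acyltransferase Lrat, lower in every cKO pool, at -0.66 ± 0.24, adjusted p = 0.19.

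In the circadian clock 1 of 18 genes fell and 0 rose (median -0.02). Per3, a period gene and target of the clock, read 2524, 2686 and 2883 in control pools and 1650, 1778 and 1675 in cKO pools, so that cKO kept 63.0% of the control mean and every cKO pool lay below every control. The difference was -0.66 ± 0.17, adjusted p = 0.013, and 3 further Per3 probe sets passed as lower too, by -0.90 to -1.04. The adjusted p was 0.12 without control pool 3, 0.072 without cKO pool 1 and 0.058 without cKO pool 3. Other clock genes were lower in every cKO pool without passing: Per2 (426.8, 440.8 and 525.0 against 354.2, 294.6 and 341.8, -0.47 ± 0.20, adjusted p = 0.34), Nr1d2 (-0.17 ± 0.10, adjusted p = 0.75) and Bhlhe41 (-0.73 ± 0.26, adjusted p = 0.16). Per1 (-0.17 ± 0.20), Arntl (0.16 ± 0.17), Clock (0.13 ± 0.15), Dbp (-0.03 ± 0.16) and Tef (-0.07 ± 0.13) overlapped between the genotypes. The promoter of Per3 is printed because 4 of its probe sets fell by day. The window runs from 250 bases before to 50 bases after the start of transcription on the minus strand, chr4:151044616-151044915 in GRCm38.p6, from RefSeq, and capitals mark the D box TTATGTAA, which PAR bZIP factors such as Dbp and Tef and the repressor Nfil3 are known to bind.
Per3: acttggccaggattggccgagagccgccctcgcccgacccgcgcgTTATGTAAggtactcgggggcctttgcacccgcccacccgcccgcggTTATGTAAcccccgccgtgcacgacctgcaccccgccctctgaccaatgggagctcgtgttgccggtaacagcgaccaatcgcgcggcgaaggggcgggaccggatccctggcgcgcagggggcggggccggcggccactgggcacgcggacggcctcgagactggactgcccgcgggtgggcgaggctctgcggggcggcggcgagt
Both D boxes lie upstream of the start, at 205 and 158 bases before it. Of 12496 such promoters of tested genes, 59 (0.472%) held this motif on either strand and 2 held it more than once. No CANNTG was found in this window, against 63.8% of promoters with at least 1.

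None of the genes of secretion passed. In the dense-core granule list 0 of 13 passed (median 0.05), with chromogranin A (Chga) at 0.15 ± 0.13 and higher in every cKO pool (3169, 3502 and 3562 against 3783, 3990 and 3613, adjusted p = 0.91). Dlk1, a membrane protein of endocrine cells, was also above all controls in every cKO pool, 2832, 3118 and 3564 against 4529, 4152 and 4002, and missed the threshold (0.42 ± 0.13, adjusted p = 0.083), which it passed with pool number as a block (adjusted p = 0.034). Synaptic and vesicle genes gave 0 of 18 (median 0.03), with Snap25 at 0.01 ± 0.05 and the ribbon complexin Cplx3 at -0.00 ± 0.08. Ion channels gave 0 of 14 (median 0.04), the potassium channel Kcnma1 having the lowest adjusted p (0.28 ± 0.11, adjusted p = 0.31).

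In the GABA system, of 8 tested members 2 rose and 0 fell, and the median was 0.50 against 0.02 over all genes. Gad1, the enzyme that makes GABA from glutamate, read 30.2, 46.9 and 226.8 in control and 263.6, 125.1 and 430.5 in cKO pools. Control pool 3 lay above cKO pool 2, so the groups overlapped, and the difference passed (1.55 ± 0.30, adjusted p = 5.4e-04). A second Gad1 probe set was too dim to test. Gabrb1, a subunit of the GABA-A receptor, read 132.6, 173.4 and 171.2 against 312.2, 345.3 and 387.0 without overlap (1.06 ± 0.23, adjusted p = 0.002), and its second tested probe set rose as well, 173.8, 230.9 and 191.1 against 369.9, 348.2 and 410.4 (0.88 ± 0.20). Members that did not pass were the astrocyte GABA transporter Slc6a11 (2306, 2784 and 4028 against 4235, 3788 and 4187, 0.46 ± 0.13, adjusted p = 0.051), the degrading transaminase Abat (0.38 ± 0.15), the receptor subunits Gabra4 (0.54 ± 0.26) and Gabrr1 (0.55 ± 0.22), and the B receptor Gabbr1 (0.01 ± 0.11). Gad2 and the vesicular transporter Slc32a1, markers of GABA neurons, were too dim to test. Without control pool 1, 0 of the 8 passed by limma (adjusted p = 0.25 for Gad1 and 0.052 for Gabrb1). Control pool 1, the lowest of the controls in Maob, Gad1 and Gabrb1, was also the lowest in choroid plexus genes, and the part of that tissue in these results was not tested. The promoters of the 2 genes that rose are shown for comparison with those of Per3 and S100a8. Both lie on the plus strand in GRCm38.p6 (RefSeq), Gad1 at chr2:70561879-70562178 and Gabrb1, at the more upstream of its 2 starts, at chr5:71657671-71657970. Neither holds the bHLH sites CAGCTG or CAGATG on either strand, so no letters are in capitals.
Gad1: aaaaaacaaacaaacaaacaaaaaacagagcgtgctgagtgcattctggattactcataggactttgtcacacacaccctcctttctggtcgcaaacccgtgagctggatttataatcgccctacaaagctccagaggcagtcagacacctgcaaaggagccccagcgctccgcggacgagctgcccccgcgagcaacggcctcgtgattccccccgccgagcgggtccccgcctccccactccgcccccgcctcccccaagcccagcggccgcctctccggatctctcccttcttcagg
Gabrb1: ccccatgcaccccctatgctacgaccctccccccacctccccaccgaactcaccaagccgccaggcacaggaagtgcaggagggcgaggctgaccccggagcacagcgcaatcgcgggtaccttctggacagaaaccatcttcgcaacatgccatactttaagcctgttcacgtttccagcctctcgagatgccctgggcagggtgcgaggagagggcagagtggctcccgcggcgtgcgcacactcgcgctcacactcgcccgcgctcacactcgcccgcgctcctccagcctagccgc
Of the promoters of genes that rose, 26.0% (25 of 96) held CAGCTG or CAGATG on either strand, of those that fell 30.1% (37 of 123), and of all tested 25.0% (3122 of 12496).

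Among the lists, the one with the most rising genes was that of the choroid plexus, the epithelium that makes cerebrospinal fluid. Of its 16 tested members 10 rose and 0 fell, with a median of 0.72, and 12 had every cKO pool above every control pool. Kl, the anti-ageing hormone and FGF coreceptor klotho, read 1483, 2797 and 2115 in control and 3967, 4693 and 4262 in cKO pools (1.05 ± 0.17, adjusted p = 1.1e-05). Control pool 1 was the lowest of all and control pool 2 the highest of the controls, an order that the other 9 passing members shared. The carbonic anhydrase Car12 read 798.2, 1382 and 1126 against 1893, 2402 and 2444 (1.04 ± 0.22, adjusted p = 0.0013). Claudin 2 (Cldn2), the pore-forming tight junction protein of this epithelium, read 372.3, 631.4 and 450.7 against 777.0, 1040 and 992.4 (0.95 ± 0.21, adjusted p = 0.0038), and the folate receptor Folr1 971.7, 1821 and 1312 against 2375, 2753 and 2227 (0.87 ± 0.19, adjusted p = 0.002). The potassium channel Kcnj13 (0.74 ± 0.15), the cation channel Trpv4 (0.92 ± 0.23), the BMP antagonist Sostdc1 (0.86 ± 0.17), the metalloreductase Steap1 (0.74 ± 0.20), the growth factor Igf2 (0.64 ± 0.14) and the chloride channel protein Clic6 (0.63 ± 0.13) passed as well. Transthyretin (Ttr), the main secreted product of the plexus, read 13673, 13717 and 13082 against 14358, 13609 and 13026 (0.02 ± 0.05), and the water channel Aqp1 overlapped (0.44 ± 0.18, adjusted p = 0.35). With pool number as a block Tmem72 passed as well (0.71 ± 0.23, adjusted p = 0.049).

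The count depended on control pool 1 and on the processing. Without control pool 1 the median of these 16 genes was 0.50 and 1 passed, with adjusted p-values of 0.20 for Car12, 0.19 for Cldn2 and 0.18 for Folr1, and without pool 3 of both genotypes 7 passed. After quantile normalization the median was as large, 0.71, but 0 passed, in a fit with 6.69 prior degrees of freedom. By limma 0 passed either after trimmed mean scaling, with no filter, with the mean of all probe sets, without the variance trend and with all 24 arrays. The medians of the list were then 0.64 to 0.72. After median centring 15 passed. The summed signal of the list was 42658 to 55752 units in the control pools and 62148 to 69304 in the cKO pools, and no member was at 0. How much choroid plexus each pool held was not tested. Some genes with the same order of pools were chosen after their values were seen, so that their agreement adds no support. They were the thyroid hormone transporter Slco1c1 (2072, 3991 and 2682 against 4569, 5434 and 5066, 0.83 ± 0.15), the serotonin receptor Htr2c (0.81 ± 0.19), coagulation factor F5 (0.80 ± 0.15) and the zinc transporter Slc39a12 (0.81 ± 0.19). Their adjusted p-values without control pool 1 were 0.12, 0.33, 0.15 and 0.32.

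**Figure D3:**
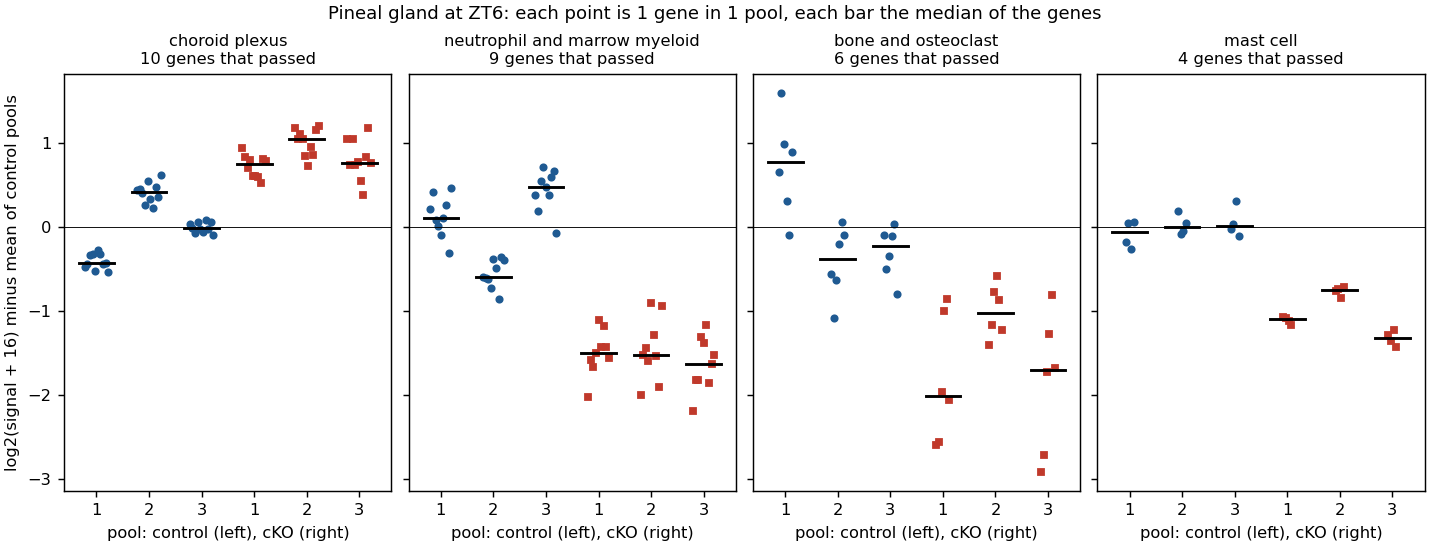
Levels of called genes of 4 lists in each pineal pool at ZT6, as log2(signal + 16) minus the mean of the 3 control pools; each point is 1 gene and each bar the median of the genes in that pool. Choroid plexus genes lie lowest in control pool 1, each of the 9 neutrophil genes lies below its own control values in all cKO pools, 5 of the 6 bone genes are highest in control pool 1, and the 4 mast cell genes lie below their control mean in all cKO pools.

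Genes of epithelial junctions rose in part. Of 14 tested, 4 passed as higher and 0 as lower (median 0.44). Desmoplakin (Dsp), the anchor of desmosomes, read 194.5, 406.6 and 239.3 in control and 590.8, 810.2 and 567.1 in cKO pools (1.23 ± 0.22, adjusted p = 1.7e-04), and a second probe set gave 1.23 ± 0.24. The desmosomal cadherin Dsg2 was at 0.98 ± 0.27, adjusted p = 0.027, claudin 1 (Cldn1) at 0.74 ± 0.19, adjusted p = 0.014 and keratin 18 (Krt18) at 0.40 ± 0.11, adjusted p = 0.022. E-cadherin (Cdh1) overlapped (-0.06 ± 0.19). Without control pool 1 the one member that passed was Dsp. Of the 5 ependymal and cilia genes tested 0 passed (median 0.48), Dynlrb2, a dynein light chain, having 0.71 ± 0.22, adjusted p = 0.075. With pool number as a block Dynlrb2 and the radial spoke gene Rsph1 (0.65 ± 0.20) passed, with adjusted p-values of 0.033 and 0.036. Among genes chosen after their values were seen, the axonemal genes Ak7 (0.86 ± 0.20), Rsph4a (0.86 ± 0.24) and Cfap52 (0.92 ± 0.23) passed. The adjusted p of Ak7 was 0.25 without control pool 1, that of Rsph4a 0.48 without control pool 1, 0.15 without control pool 3 and 0.11 without cKO pool 2 and that of Cfap52 0.12 without control pool 1, 0.18 without control pool 3 and 0.16 without cKO pool 2. The ependymal regulator Foxj1 was too dim to test, 52.7, 121.5 and 68.5 against 125.1, 203.5 and 108.9.

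Several of the largest single rises outside these lists were also lowest in control pool 1. The nucleoside transporter Slc28a3 read 130.8, 144.2 and 190.8 against 364.5, 386.9 and 330.6 (1.15 ± 0.25, adjusted p = 0.0025), the RNA-binding protein Rbm47 689.5, 1321 and 1252 against 2103, 2575 and 2165 (1.11 ± 0.21, adjusted p = 2.2e-04) and the fatty acid elongase Elovl7 767.7, 1259 and 972.3 against 1997, 2339 and 1962 (1.08 ± 0.21, adjusted p = 4.2e-04). The protease inhibitor A2m read 391.2, 865.7 and 626.7 against 1152, 1833 and 968.6 (1.07 ± 0.21, adjusted p = 6.3e-04). The basement membrane protein Frem1 (1.04 ± 0.23), the monoamine transporter Slc29a4 (1.00 ± 0.24), the adhesion molecule Nfasc (0.98 ± 0.22), the membrane protein Igsf1 (1.02 ± 0.27) and Spry1, an inhibitor of growth factor signalling (1.03 ± 0.27), complete the 15 largest rises together with genes named elsewhere. Lack of overlap between the groups was part of the rule that chose these 9 genes. Without control pool 1 none of the 9 passed.

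The list with the most falling genes was that of neutrophils and marrow myeloid cells. Of 10 tested members 9 fell and 0 rose, with a median of -1.49, and all 10 had every cKO pool below every control pool. S100a8, a calcium-binding protein that fills the cytoplasm of neutrophils, read 3277, 1855 and 3671 in control pools and 681.3, 693.9 and 605.7 in cKO pools (-2.07 ± 0.25, adjusted p = 1.4e-09). Its partner in the calprotectin dimer, S100a9, read 7022, 3438 and 6019 against 1752, 1816 and 1475 (-1.64 ± 0.20, adjusted p = 1.4e-09). The cKO pools were close together, while control pool 2 was the lowest of the controls in both genes. The granule genes Camp (527.6, 318.8 and 733.9 against 146.8, 174.5 and 130.3, -1.64 ± 0.26, adjusted p = 8.4e-06) and Ngp (619.1, 364.0 and 1010 against 205.5, 191.9 and 237.0, -1.47 ± 0.27, adjusted p = 2.4e-04) were likewise lowest in control pool 2 among the controls. Chil3 (-1.52 ± 0.28), the gelatinase Mmp9 (-1.34 ± 0.23), lipocalin 2 (Lcn2, -1.29 ± 0.26) and lactoferrin (Ltf, -1.13 ± 0.29) fell as well. Slfn4, a Schlafen gene of myeloid cells, read 218.6, 212.1 and 446.2 against 91.9, 61.7 and 78.3 (-1.66 ± 0.25, adjusted p = 4.0e-06). The primary granule genes Mpo, Elane, Prtn3 and Ctsg, which mark earlier marrow stages, were too dim to test. The summed signal of the list was 7554 to 14399 units in the control pools and 3263 to 3920 in the cKO pools, with no measured member at 0, and how many neutrophils or how much marrow each pool held was not tested. Without control pool 1, 4 of 9 tested members passed (adjusted p = 0.052 for Ngp and for Mmp9), and after quantile normalization 3 of 10.

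S100a8 and S100a9 are neighbours on chromosome 3 and are transcribed in opposite directions, and they are 1 of 8 pairs of called genes that are next to each other among the genes measured. In all 8 pairs both genes moved the same way: Lyz2 and Lyz1, Malat1 and Neat1, S100a8 and S100a9, Gm13306 and Gm21953, Ppbp and Pf4, Dmp1 and Ibsp, and Mmp13 and Mmp12 fell, and Dcaf12l1 and Prr32 rose. Of all genes tested 0.701% passed as higher and 1.10% as lower. How many adjacent or agreeing pairs such shares would give was not computed, so the 8 pairs are a description. The pairs Ppbp and Pf4, Dmp1 and Ibsp, and S100a8 and S100a9 each belong to 1 cell type list. The promoters of the S100 pair are printed since both genes fell together, S100a8 on the plus strand at chr3:90668821-90669120 and S100a9 on the minus strand at chr3:90695672-90695971 (GRCm38.p6, RefSeq). Capitals mark CAGCTG, and CATCTG, which is CAGATG on the other strand.
S100a8: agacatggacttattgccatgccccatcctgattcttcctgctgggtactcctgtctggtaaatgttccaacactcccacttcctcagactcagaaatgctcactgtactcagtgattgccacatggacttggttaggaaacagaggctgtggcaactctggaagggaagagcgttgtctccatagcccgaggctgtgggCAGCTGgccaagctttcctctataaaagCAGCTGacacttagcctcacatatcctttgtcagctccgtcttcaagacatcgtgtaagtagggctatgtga
S100a9: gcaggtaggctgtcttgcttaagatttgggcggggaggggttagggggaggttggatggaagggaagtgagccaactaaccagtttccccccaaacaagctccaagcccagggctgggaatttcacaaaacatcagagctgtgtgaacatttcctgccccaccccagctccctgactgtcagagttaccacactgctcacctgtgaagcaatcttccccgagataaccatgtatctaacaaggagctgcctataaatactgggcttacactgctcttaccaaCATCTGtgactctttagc
In S100a8 the 2 matches begin 50 and 22 bases before the start of transcription, and in S100a9 the match lies after the start. A match to 6 letters is a description of the sequence and was present in 25.0% of all promoters searched.

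Bone genes fell next. Of 7 tested members of the bone and osteoclast list 6 fell and 0 rose (median -1.49). The collagenase Mmp13 read 1630, 689.7 and 960.8 in control and 156.2, 377.6 and 122.6 in cKO pools (-2.31 ± 0.28, adjusted p = 1.8e-09). Bone sialoprotein (Ibsp) read 695.5, 95.4 and 150.9 against 24.1, 89.1 and 20.1 (-2.15 ± 0.35, adjusted p = 1.1e-05), so that control pool 1 carried most of the difference and control pool 2 was close to cKO pool 2. Dentin matrix protein (Dmp1), a gene of osteocytes, read 2119, 1057 and 642.1 against 258.5, 473.9 and 342.6 (-1.66 ± 0.27, adjusted p = 1.1e-05), and the osteoclast phosphatase Acp5 1072, 337.3 and 414.8 against 125.2, 304.6 and 150.1 (-1.49 ± 0.28, adjusted p = 2.4e-04). Cathepsin K (Ctsk, -0.95 ± 0.21) and the osteoblast factor Sp7 (273.8, 308.8 and 302.2 against 155.6, 154.0 and 161.4, -0.84 ± 0.22, adjusted p = 0.018) completed the 6, and alkaline phosphatase (Alpl) overlapped (-0.05 ± 0.17). The osteocyte markers Sost and Mepe and the osteoclast markers Calcr and Ocstamp were too dim to test. The adjusted p of Acp5 was 0.094 with pool number as a block. Without control pool 1, 1 of 6 tested members passed (adjusted p = 0.095 for Dmp1), and after quantile normalization 1 of 7. The summed signal was 5365 to 8582 units in the control pools and 2916 to 4079 in the cKO pools, and how much bone each pool held was not tested. Dlx5, Vdr and Omd, genes of osteoblasts chosen after their values were seen, passed as lower (-1.06 ± 0.26, -0.98 ± 0.28 and -0.88 ± 0.20), Vdr not with the block (adjusted p = 0.12). The adjusted p of Dlx5 was 0.089 without control pool 3, 0.064 without cKO pool 1 and 0.14 without cKO pool 3, that of Vdr 0.12 without control pool 3 and 0.77 without cKO pool 3 and that of Omd 0.21 without cKO pool 3. Ibsp and Vdr lay above the array median in control arrays only and passed the filter on dim genes through these. The filter thus favoured a fall in both, so their differences are a description, and the count of 6 includes Ibsp.

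**Figure D4:**
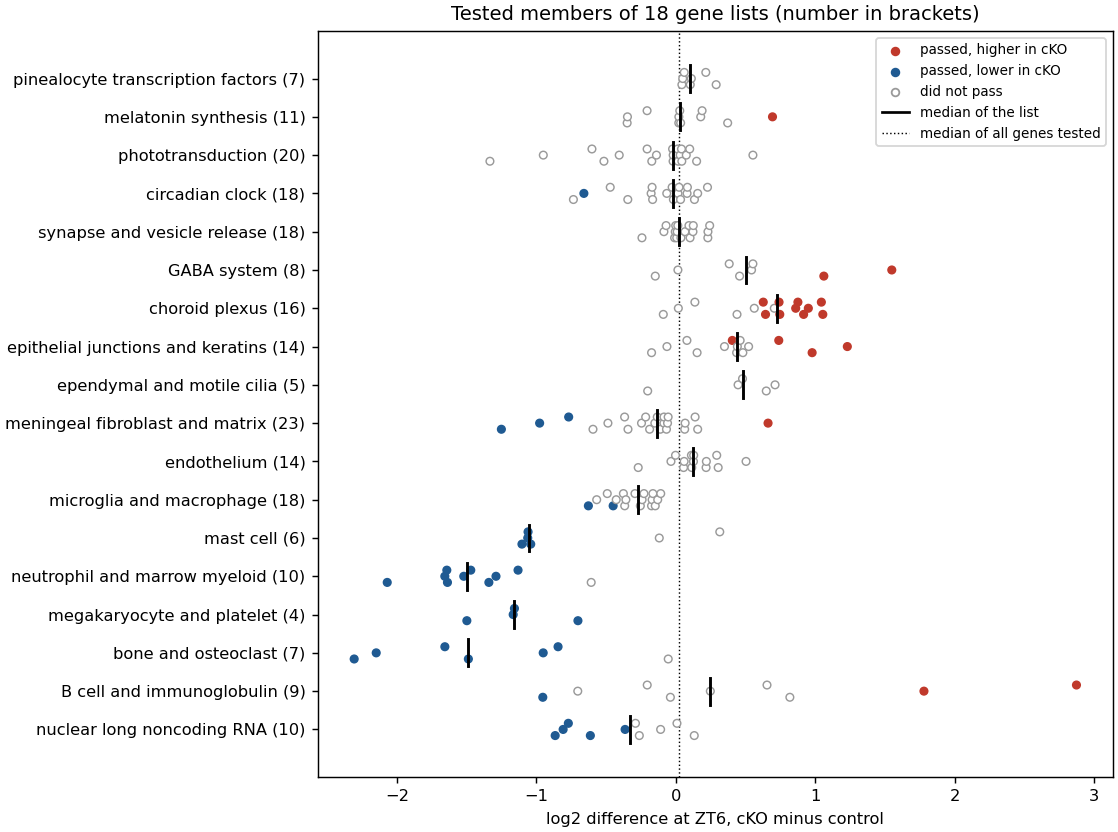
Log2 difference at ZT6 of each tested member of 18 gene lists, with the number tested in brackets; filled points passed the test, black bars are list medians and the dotted line is the median of all 11984 genes (0.02). Pinealocyte, melatonin, phototransduction, clock and synapse lists centre near the line, GABA and choroid plexus lists lie to its right, and mast cell, neutrophil, megakaryocyte and bone lists to its left.

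Genes of other blood and connective tissue cells were lower as well. Of 6 mast cell genes 4 fell and 0 rose (median -1.05). Carboxypeptidase A3 (Cpa3) read 402.2, 398.1 and 356.6 against 163.3, 227.8 and 132.9 (-1.10 ± 0.22, adjusted p = 7.8e-04), the chymases Cma1 and Mcpt4 were at -1.06 ± 0.22 and -1.06 ± 0.22 and the tryptase Tpsb2 at -1.04 ± 0.21, 4 nearly equal differences. Kit and Gata2, which other cells also express, did not pass (-0.12 ± 0.22 and 0.31 ± 0.14). Without pool 3 of both genotypes 0 of 6 passed, with a median of -0.86 and an adjusted p of 0.052 for Cpa3. The summed signal, in which the brightest members weigh most, was 4634 to 6142 units in the control pools and 4538 to 5465 in the cKO pools. These ranges overlapped, and the number of mast cells in a pool was not tested. The 4 megakaryocyte and platelet genes tested all fell (median -1.16): Rgs18, a regulator of G-protein signalling, from 207.1, 256.1 and 431.4 to 96.9, 91.1 and 83.7 (-1.50 ± 0.25, adjusted p = 4.0e-05), the glycoprotein Gp9 (-1.16 ± 0.28), platelet factor Pf4 (-0.70 ± 0.20) and Ppbp, whose pools overlapped (735.6, 598.3 and 1302 against 717.9, 294.0 and 220.8, -1.17 ± 0.24, adjusted p = 9.5e-04). Without control pool 3, 1 of the 4 passed and without control pool 1, 2 did, and with pool number as a block Pf4 and Ppbp had adjusted p-values of 0.11 and 0.057.

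Red cell genes fell in part, 2 of 5, with 0 higher (median -0.46). With pool number as a block Car2, a carbonic anhydrase, passed as higher (0.29 ± 0.09, adjusted p = 0.099 without the block and 0.03 with it). Alas2, the erythroid enzyme of haem synthesis, read 1032, 1026 and 710.6 against 376.1, 519.5 and 356.6 (-1.11 ± 0.21, adjusted p = 2.2e-04), and the globin gene Hbb-b2 9456, 9086 and 7818 against 7377, 7120 and 4937 (-0.46 ± 0.10, adjusted p = 0.0013). The adjusted p of Hbb-b2 was 0.12 without control pool 1 and 0.12 without cKO pool 3. Gzma, a granzyme of T and NK cells, fell from 263.3, 238.5 and 329.0 to 109.2, 142.5 and 119.1 (-1.06 ± 0.24, adjusted p = 0.0037, and 0.078 without control pool 3), 1 of 3 tested members of its list (0 higher, median -0.49). The T cell receptor genes Cd3e, Cd3d and Cd3g were too dim to test. Macrophage and microglia genes all had differences below 0 (18 of 18, median -0.27) but 2 passed and 0 were higher: the adaptor Tyrobp (-0.63 ± 0.18, adjusted p = 0.0498), whose call ended on leaving out any 1 of the 6 pools, and the lysozyme Lyz2 (5074, 5544 and 5587 against 4482, 4285 and 3202, -0.45 ± 0.11, adjusted p = 0.013, and 0.058 without control pool 1, 0.1 without control pool 3 and 0.39 without cKO pool 3). The share of all genes with a difference below 0 was not computed. Without pool 3 of both genotypes the median of this list was -0.07, against 0.09 over all genes, and 0 of 17 passed. After median centring it was -0.05 against 0.25, with 1 lower, and after quantile normalization -0.24 against 0.03, with 3 lower. The microglial genes Cx3cr1 (-0.23 ± 0.22) and P2ry12 (-0.43 ± 0.25) overlapped between genotypes. Interferon and antigen presentation genes gave 0 of 19 (median -0.18), complement 0 of 8 (median -0.09) and chemokines 1 of 11, Ccl6 (-0.78 ± 0.20, adjusted p = 0.013, and 0.11 without control pool 1, 0.053 without control pool 3 and 0.18 without cKO pool 3), with 0 higher (median -0.29).

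Immunoglobulin genes went in both directions. Of 9 tested members of the B cell list, 2 rose and 1 fell (median 0.25). Iglv1, a variable segment of the lambda light chain, was near background in controls, 53.6, 34.9 and 59.6, and read 1100, 196.2 and 426.5 in cKO pools 1, 2 and 3 (2.87 ± 0.30, adjusted p = 2.6e-12). Igll1, the surrogate light chain gene of similar sequence, read 93.2, 53.0 and 66.1 against 603.2, 177.0 and 192.7 (1.78 ± 0.28, adjusted p = 8.2e-06). In both, cKO pool 1 was the highest. Both genes lay above the array median on the 3 daytime cKO arrays alone and passed the filter on dim genes through these, so they had to be higher in cKO, and their differences, which rest on the pseudocount where controls are dim, are a description. Other probe sets of Iglv1 and Igll1 were too dim to test, and the second one of Igll1 read 68.3, 72.7 and 34.1 in controls and 54.7, 55.9 and 35.7 in cKO. The heavy chain gene Ighm (347.5, 347.8 and 272.8 against 1617, 242.1 and 479.5) and the joining chain Jchain (1218, 1305 and 1320 against 4999, 1215 and 1355) were highest in cKO pool 1, overlapped between the genotypes and did not pass. The B cell surface gene Ms4a1 (CD20) fell, 313.7, 308.6 and 320.9 against 167.2, 154.7 and 142.7 (-0.95 ± 0.24, adjusted p = 0.012, and 0.092 without control pool 1 and 0.072 without control pool 3), and Cd79b was lower without passing (-0.70 ± 0.22, adjusted p = 0.092). When any 1 of the cKO pools was left out, Iglv1 and Igll1 were no longer bright enough on 3 arrays to be tested. Immunoglobulin segments share sequence, so which segment a probe set read is uncertain.

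Few genes of connective tissue passed, and none of blood vessels. Of 23 meningeal fibroblast and matrix genes 1 rose and 3 fell (median -0.13). The organic anion transporter Slc22a6 read 219.3, 206.4 and 185.3 against 97.6, 86.0 and 51.5 (-1.25 ± 0.24, adjusted p = 3.5e-04), the collagen Col6a3 was at -0.98 ± 0.22, adjusted p = 0.0033 and periostin (Postn) at -0.77 ± 0.20, adjusted p = 0.018, while Igfbp2, an IGF-binding protein, rose (0.66 ± 0.18, adjusted p = 0.034). The adjusted p was 0.088 without cKO pool 3 for Col6a3, 0.053 to 0.13 for Postn with any 1 of 4 pools left out (control 2 or 3, cKO 1 or 3) and 0.77 without control pool 1, 0.058 without control pool 3 and 0.36 without cKO pool 2 for Igfbp2. The main fibrillar collagens Col1a1 (-0.11 ± 0.09) and Col1a2 (-0.09 ± 0.10) and decorin (Dcn, 0.06 ± 0.13) overlapped. Endothelial genes gave 0 of 14 (median 0.12) and mural genes 0 of 7 (median 0.04), with Pecam1 at 0.11 ± 0.20 and Acta2 at 0.02 ± 0.14.

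Signs of glial reaction, cell death or a shift in metabolism were sought in further lists. Of 11 astrocyte genes 0 passed (median 0.08), with Gfap at -0.10 ± 0.19 and Aldh1l1, higher in every cKO pool, at 0.81 ± 0.25, adjusted p = 0.066, and 0.036 with pool number as a block. The injury response list gave 1 higher (A2m) and 1 lower (Lcn2) of 12, with Socs3 at 0.02 ± 0.23 and Serpina3n at 0.34 ± 0.20 (median -0.06). Cell death genes gave 0 of 9 (median 0.01) and cell cycle genes 1 of 15, the cyclin Ccna2, which fell from 361.4, 371.0 and 385.5 to 212.8, 227.5 and 210.7 (-0.74 ± 0.21, adjusted p = 0.038, and 0.1 to 0.2 with any 1 pool left out), with 0 higher. The proliferation marker Mki67 was at -0.45 ± 0.24. Immediate-early genes gave 0 of 11 (median -0.15), Fos being lower in every cKO pool, 528.5, 607.8 and 687.4 against 309.5, 415.7 and 442.3, without passing (-0.63 ± 0.20, adjusted p = 0.081, and 0.019 with the block). The 23 respiratory chain genes (median 0.00) and 10 ribosomal genes (median -0.03) held 0 calls, and each difference lay between -0.14 and 0.10. Oligodendrocyte and Schwann cell genes (0 of 3) and lens genes (0 of 4) held none either. Of 7 tested genes of neighbouring brain neurons, Nrgn fell, 129.1, 152.7 and 307.8 against 133.7, 61.0 and 64.4 with overlap (-1.03 ± 0.28, adjusted p = 0.022, and 0.11 with the block, 0.051 without control pool 1, 0.53 without control pool 3, 0.16 without cKO pool 2 and 0.1 without cKO pool 3), and 0 rose.

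Long noncoding RNAs of the nucleus were lower in a list written after their values had been seen, 5 of 10 tested with 0 higher (median -0.33). Kcnq1ot1, the antisense transcript of an imprinted cluster, read 2047, 1916 and 2347 against 1209, 861.4 and 1435 (-0.86 ± 0.18, adjusted p = 8.3e-04), and 3 further probe sets of it passed as lower. Airn, another imprinted antisense transcript, read 1529, 1504 and 1919 against 1070, 789.7 and 952.2 (-0.81 ± 0.18, adjusted p = 0.0026). Neat1, the scaffold of paraspeckles, was at -0.61 ± 0.15, adjusted p = 0.0076, Malat1 at -0.36 ± 0.08, adjusted p = 0.0038 and Mir99ahg at -0.77 ± 0.19, adjusted p = 0.012. The maternally expressed Meg3 (0.01 ± 0.09) and Rian (0.13 ± 0.10) overlapped. The adjusted p of Kcnq1ot1 was 0.073 without cKO pool 2, that of Airn 0.076 without control pool 3 and 0.062 without cKO pool 2, that of Neat1 0.066 without control pool 2 and 0.073 without control pool 3 and that of Malat1 0.068 without control pool 1 and 0.28 without cKO pool 3. Of 6 further probe sets of Malat1, 2 passed as lower and 4 did not pass. Without pool 3 of both genotypes 2 of the 10 passed. Tbrg3, the largest fall outside the lists, read 307.3, 273.8 and 517.0 against 84.4, 62.3 and 147.3 (-1.76 ± 0.25, adjusted p = 2.7e-07).

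By night the same genotypes were compared at ZT20, and the difference between day and night was tested in the same fit. At ZT20, 1 gene passed as higher (0.00834%) and 113 as lower (0.943%), and the median of all genes was -0.15 against 0.02 by day. Neurod1 was less depleted there in 2 of the 3 cKO pools: it read 22.5, 1897 and 960 in night cKO pools 1, 2 and 3. Genes that passed at both times numbered 31, namely 30 lower and 1 higher, and the latter was Gad1 (1.55 by day and 1.16 ± 0.30, adjusted p = 0.035 by night). The 4 mast cell genes that fell by day also passed by night, Cpa3 at -1.05 ± 0.22, adjusted p = 0.0059 and Tpsb2 at -1.24 ± 0.21, adjusted p = 3.2e-04. Mmp13 (-1.30 ± 0.28, adjusted p = 0.0078) and Col6a3 (-0.98 ± 0.22, adjusted p = 0.0079) passed at both times too.

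The difference between day and night passed for 29 genes (0.242%), 17 with a higher cKO effect by day and 12 with a lower one. Among neutrophil genes it was -2.16 ± 0.36, adjusted p = 9.2e-05 for S100a8, which read 1285 ± 829.4 (SD) against 1271 ± 843.5 at night, -1.72 ± 0.28, adjusted p = 9.2e-05 for S100a9 and -2.13 ± 0.36, adjusted p = 9.2e-05 for Slfn4. The list had a night median of -0.03 against -1.49 by day, and the platelet list 0.21 against -1.16, with Ppbp at -1.69 ± 0.34, adjusted p = 0.0036. The choroid plexus list had a night median of 0.02 and 0 calls, with Kl at 1.02 ± 0.24, adjusted p = 0.032 and Dsp at 1.26 ± 0.32, adjusted p = 0.048. Iglv1 was at 2.53 ± 0.43, adjusted p = 9.2e-05 and Neurod1 itself at -3.27 ± 0.54, adjusted p = 9.2e-05, 2 of the 3 night cKO pools being less depleted. How far this weaker depletion bears on the differences of other genes was not tested. Iglv1 passed the filter on dim genes through the daytime cKO arrays alone, so its difference is a description. Spry1 (1.68 ± 0.38, adjusted p = 0.019), Moxd1 (1.34 ± 0.28, adjusted p = 0.0088), Kcnk3 (1.59 ± 0.35, adjusted p = 0.019) and Sema3g (1.42 ± 0.35, adjusted p = 0.038) were the other large positive differences. The mast cell list had medians, by day and by night, of -1.05 and -1.09. After quantile normalization or trimmed mean scaling 0 genes passed this test by limma (1156 and 1018 at an unadjusted p under 0.05), and with the replicate block 6 did (Neurod1 itself then had an adjusted p of 0.12).

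**Figure D5:**
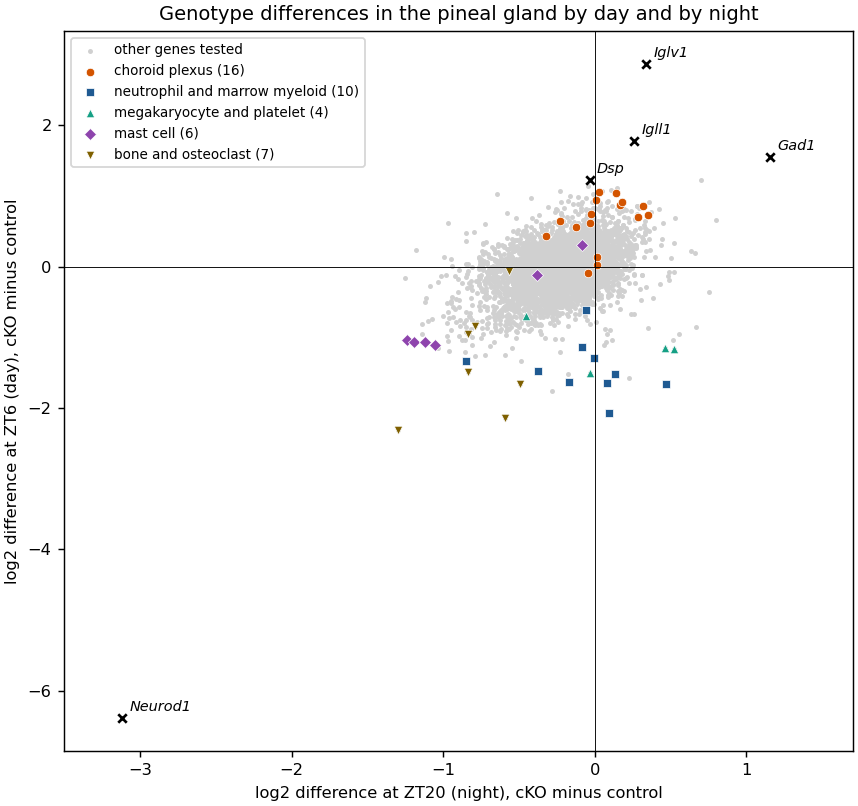
Genotype difference at ZT6 against that at ZT20 for each gene tested in the pineal gland, in log2 units, with the tested members of 5 lists coloured. Choroid plexus genes lie above 0 by day and around 0 by night, neutrophil genes lie below 0 by day and mostly near 0 by night, and 4 mast cell genes lie near -1 at both times.

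In the retina at ZT6, in a fit of all 24 arrays, 25.7% of genes passed as higher in cKO and 1.11% as lower, around a median of 0.29. The cKO effect differed between the tissues for 729 genes, 703 with a higher retinal effect (5.44%) and 26 with a higher pineal effect (0.201%). Lcn2 fell in the pineal gland (-1.29) and was at 3.08 in the retina (difference 4.37 ± 0.56, adjusted p = 7.7e-06). A2m rose in both, 1.07 and 3.19 (2.12 ± 0.41, adjusted p = 0.0011). S100a8 was at 0.21 in the retina (2.28 ± 0.57, adjusted p = 0.013), Mmp9 at 0.69 (2.03 ± 0.43, adjusted p = 0.0031) and Mmp13 at -0.03 (2.27 ± 0.63, adjusted p = 0.028). Iglv1 was at 0.01 in the retina (-2.86 ± 0.52, adjusted p = 6.3e-04), and Agr2, a secretory pathway protein that read 250.3, 328.0 and 308.2 in control and 146.9, 114.4 and 119.9 in cKO pineal pools, differed by -2.71 ± 0.43, adjusted p = 1.2e-04. In the pineal gland Iglv1 lay above the array median on the daytime cKO arrays alone, so its difference is a description. Gad1 in the retina was at 0.32, a difference between tissues of -1.23 ± 0.57, adjusted p = 0.22. Neurod1 fell in both tissues (-6.39 and -3.56), and that difference did not pass (2.83 ± 1.14, adjusted p = 0.15). After median centring, 354 genes had the higher retinal and 1932 the higher pineal effect, so the split of this count rests on the scaling.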

How the data were processed

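RNA of pineal glands and retinas was measured on Affymetrix Mouse 430 2.0 arrays, after amplification with NuGEN kits, per the labels' protocols. The authors deposited 1 signal intensity per probe set and array, on a linear scale, and the submitters' processing notes name GCOS without a version. Scaling, detection calls and scan dates were not given in the sources used here, so batches were not examined. Names of probe sets came from the array's annotation (34945 with 1 symbol, 932 with several, 9160 with none, and 64 controls left out), and 34741 were matched to RefSeq. Groups were taken from sample titles.

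Values were used as deposited, as log2(value + 16), which understates the change of dim genes. Genes above the array median on at least 3 of 12 pineal arrays entered limma 3.58.1 (R 4.3.3, lmFit and eBayes with trend), with 1 mean for each of 4 groups, and the tissue comparison with 24 arrays. Two-sided p-values were adjusted over all genes tested by the Benjamini-Hochberg method. The 39 gene lists and the members were chosen with earlier results of these data known, and 1 list (nuclear noncoding RNA) and some single genes after their values were seen. Genes named were Neurod1, the 15 largest rises and falls that passed without overlap of pools, up to 5 passing and 3 other members of each list, a few genes by name and the 5 largest each way in each difference; other members are named from their list. The 19 genes tested only through control arrays gave 6 of the lower calls, and the 58 tested only through cKO arrays gave 4 of the higher ones. The titles do not say whether a pool number marks a shared preparation, so the main fit did not pair the pools. Deviations of same-numbered pools from their group means correlated at 0.196, 0.355 and 0.322, and the block was run as an alternative. The number of arrays limits the precision. Alternatives were other normalizations, pseudocounts, filters, probe set rules and variance models, the block, and each pool left out.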

Additional observations from a re-analysis of the deposited data

Results flagged for a closer look

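The difference of the genotype effect between ZT6 and ZT20 in the pineal gland passed for several genes described above, and their values are given here in log2 units, day minus night, each from limma. It was negative for Neurod1 (-3.27), for the neutrophil genes S100a8 (-2.16), Slfn4 (-2.13), S100a9 (-1.72), Chil3 (-1.66) and Camp (-1.47), for the platelet genes Ppbp (-1.69) and Rgs18 (-1.46) and for Tbrg3 (-1.48). It was positive for Iglv1 (2.53), Spry1 (1.68), the potassium channel Kcnk3 (1.59), the semaphorin Sema3g (1.42), the monooxygenase Moxd1 (1.34), A2m (1.30), Dsp (1.26) and Kl (1.02). Adjusted p-values of these 17 ran from 9.2e-05 to 0.049. Iglv1 passed the filter on dim genes through the daytime cKO arrays alone, so its difference was favoured in advance and is a description. Neurod1 was less depleted in night cKO pools 2 and 3, and how far this bears on the other differences was not tested. After quantile normalization 0 genes passed by limma (1156 at an unadjusted p under 0.05), and with pool number as a block 6 genes passed. Of the 5 largest differences each way, S100a8 and Slfn4 were among those 6, and Neurod1, Iglv1, Spry1, S100a9, Ppbp, Kcnk3, Sema3g and Moxd1 had adjusted p-values of 0.051 to 0.13 with the block; for the other 7 genes named here that value was not computed singly.

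The genotype effect at ZT6 differed between retina and pineal gland, given as retina minus pineal gland. Among genes that passed in the pineal gland the difference was 4.37 for Lcn2, 2.28 for S100a8, 2.27 for Mmp13, 2.12 for A2m, 2.03 for Mmp9, 1.84 for S100a9, 1.69 for Tbrg3, 1.54 for Slfn4 and 1.41 for Rgs18, and it was -2.86 for Iglv1 and -1.91 for Igll1. In the pineal gland Iglv1 and Igll1 lay above the array median on the daytime cKO arrays alone, so their differences are a description. Differences also passed in genes named for their size here, Tal2 (5.48), Timp1 (3.91), Slc6a2 (3.59) and Fgf2os (3.37) upward, and in Agr2 (-2.71), Csrp3 (-2.60), Doc2b (-2.59) and Cldn23 (-2.56) downward. Of these last 8 genes Agr2 passed in the pineal gland by day, and Tal2, Timp1 and Csrp3 did not. Slc6a2, Fgf2os, Doc2b and Cldn23 were too dim in the pineal gland to test and entered through retinal arrays, so their differences rest on the pseudocount and have no order.

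Probe sets that the choice of members left out also differed in the pineal gland at ZT6. Probe set 1424931_s_at, annotated to several symbols, read 168.5, 169.2 and 170 in control pools and 3815.3, 1154.1 and 1642.9 in cKO pools (3.40 ± 0.38). With no symbol in the table used, 1445277_at read 317.7, 231.5 and 330.4 against 97.2, 39.8 and 165.1 (-1.55 ± 0.28), 1446296_at 210.4, 160.1 and 228.9 against 63, 43.1 and 71.1 (-1.53 ± 0.23), and 1448556_at 585.8, 1092.3 and 823.7 against 1776.4, 2317.7 and 1586.1 (1.19 ± 0.26). In 1448556_at control pool 1 was the lowest of all pools.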

How the results depend on the processing

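The count of 216 genes at ZT6 was 4169 after median centring (4024 higher, 145 lower), 23 with no filter on dim genes (2 and 21), 68 with the mean of all probe sets of a gene (5 and 63), 37 without the variance trend, 12 with all 24 arrays, 477 with the 6 ZT6 arrays alone, 491 with these and a replicate block, 82 without pool 3 of both genotypes, and 75 to 215 with 1 pool left out. The count stayed within 1.5 times (176 to 262) under quantile normalization (219, of which 91 were among the 216), trimmed mean scaling (226, of which 104 were), other pseudocounts, a stricter filter, avoidance of _x_at probe sets and the replicate block (262). The genes changed more than the count. Of the 89 passing genes described above or drawn from the lists, 53 lost their call under quantile normalization and 51 under trimmed mean scaling. Besides the calls given above, the block ended those of Prm1, Tubb1, Wdr48, Tnc and Tnmd. The count of 29 for day against night was 0 after quantile normalization, after trimmed mean scaling, with no filter (970 at an unadjusted p under 0.05), with the mean of probe sets (634) and without the trend (657), by limma in each case, 2 after median centring, 6 with the block, 324 without night cKO pools 2 and 3, and 2 to 99 with 1 pool left out. The count of 729 for retina against pineal gland was 2286 after median centring, 300 with the stricter filter, 314 without pool 3 of both genotypes, and 430 to 975 with 1 pool left out; its split was 494 to 306 after quantile normalization. Median centring turned Cplx3 to 0.23, Pmp22 to 0.23, B2m to 0.22 and Rps14 to 0.18, avoiding _x_at sets put Tarbp2 at -0.00075, and the day to night difference of Neurod1 was 0.16 without night cKO pools 2 and 3; this alternative leaves 1 night cKO pool, assumed to vary like the other groups, and was chosen by the Neurod1 signal of those pools, so it tests nothing about Neurod1. For other changes of a count or call the cause was not tested. Over single genes and alternatives with a test, 3771 values stayed on their side of the threshold, 715 lost and 121 gained a call, and 6 reversed. Dim genes, with signals near the pseudocount, have the least certain fold changes.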

Other observations

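Probe sets without a gene symbol in the annotation used were lower in cKO far more often than genes. Of 2634 such probe sets tested by day, 1137 passed as lower (43.2%) and 26 as higher, with a median of -0.37 against 0.02 for genes. Their p-values were adjusted over these probe sets alone, so the unadjusted cutoff was looser than for genes. Of the 11984 genes, 1031 had an unadjusted limma p under 0.05 in either direction. At equal brightness the shift was seen among dimmer probe sets: between 200 and 400 units the median was -0.63 against -0.02 for genes. Between 400 and 800 units it was -0.18 against 0.004, between 800 and 1600 units -0.01 against 0.03, and above 1600 units 0.05 against 0.05. Lower calls were still more frequent than in genes where the medians were level. Between 800 and 1600 units 19.4% passed as lower against 0.608% of genes, and 2.37% as higher against 0.405%. Above 1600 units 6.94% passed as lower against 0.366%, and 1.58% as higher against 0.776%. After quantile normalization 877 passed as lower (33.3%) and 79 as higher, and after median centring 824 as lower (31.3%) and 366 as higher (13.9%). Per pool, 2021 of these probe sets were set against 4806 genes, all of 100 to 800 units. In the 3 control pools the median of the probe sets lay 0.22, 0.46 and 0.17 log2 units below that of the genes. In the cKO pools it lay 0.65, 1.04 and 0.60 units below (exact permutation test, two-sided, p = 0.1, the smallest that 3 against 3 pools allow). These are brightness bands in which the same arrays had shown the shift, so this p-value is a description and adds no support. At night 542 of all 2634 passed as lower (20.6%), and the same contrast of pools gave an exact permutation p of 0.3. In the retina by day 31 of 3323 passed as lower and 299 as higher.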
